A study of Mus musculus with 8 samples.

Results

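The Hox cluster genes of the mouse were followed across 4 genotypes of newborn skin. Every probe set was taken whose only gene symbol in the platform annotation was Hox followed by a, b, c or d and a number, with Hoxc13 left out by that rule. This gave 36 probe sets for 30 genes, out of 22626 probe sets and 12393 genes with a single symbol on the array. The Hoxa cluster contributed 9 genes with 12 probe sets, Hoxb 9 genes with 10, Hoxc 5 genes with 7, and Hoxd 7 genes with 7. A further 3 probe sets that listed a Hox symbol together with other symbols were not used. No filter on expression was applied, so all 36 were tested.

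Whole skin of newborn FVB mice was hybridised to Affymetrix arrays, with 2 arrays per genotype and the RNA of 3 animals pooled for each. The 4 genotypes were pRb+/+, pRb-/-;p107+/+ (called the pRb mutant here), pRb+/+;p107-/- (the p107 mutant) and pRb-/-;p107-/- (the double mutant). The pRb+/+ label gives no p107 genotype, which was taken as wild-type. No group received a treatment, and the labels state neither the cells in which Rb1 was deleted nor the driver of the deletion. pRb and p107, encoded by Rb1 and Rbl1, are pocket proteins that bind E2F transcription factors and hold back genes of the cell cycle. The labels do not say whether the 2 arrays of a genotype came from separate pools, so the p-values below measure the spread between these arrays, which may be technical.

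Hox proteins are homeodomain transcription factors that give cells along the body axis and the limbs their positional identity. Their genes lie in 4 clusters, and the order of the genes within a cluster follows the order in which they are used from head to tail. Low paralog numbers mark anterior genes and high numbers posterior ones, and genes with the same number in different clusters are called paralogs. In skin, dermal fibroblasts keep a Hox pattern that reflects the body site they come from, and posterior Hox genes are used at distal sites such as the paws, the tail and the genital region. Polycomb and Trithorax complexes hold the clusters in a silent or an active state, and TALE homeodomain proteins bind DNA together with Hox proteins. In what follows, paralog groups 1 to 3 are called anterior, 4 to 8 central and 9 to 13 posterior.

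The values are standardized scores. Each probe set has a mean of 0 and an SD of 1 over the 8 arrays, so a score of 1 lies 1 SD of that probe set above its own mean. Scores show on which arrays a transcript was higher or lower. They carry neither the level of a transcript nor a fold change, and no score over 8 arrays can pass 2.47 in size. Differences between genotypes are in the same unit, each ± the standard error (SE) of a linear model (limma, unmoderated, 8 arrays), and adjusted p-values are Benjamini-Hochberg values over all 22626 probe sets. In RNA from whole skin, fewer cells of a type and less RNA per cell cannot be told apart.

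RefSeq promoter sequences of build GRCm38.p6, from 250 bases before to 50 after the annotated start, were matched by symbol for 18 of the 30 genes, which have 20 promoters. The following 6 are shown because their genes span the patterns described below. In Hoxa5, Hoxa7, Hoxa9 and Hoxc4 every probe set had its lowest scores on both pRb+/+ arrays, whereas Hoxd1 and Hoxd9 did not. Each is written 5′ to 3′ on the strand of its gene, and capitals mark CG dinucleotides, the sites of DNA methylation.
Hoxa5, chr6:52204538-52204837, minus strand: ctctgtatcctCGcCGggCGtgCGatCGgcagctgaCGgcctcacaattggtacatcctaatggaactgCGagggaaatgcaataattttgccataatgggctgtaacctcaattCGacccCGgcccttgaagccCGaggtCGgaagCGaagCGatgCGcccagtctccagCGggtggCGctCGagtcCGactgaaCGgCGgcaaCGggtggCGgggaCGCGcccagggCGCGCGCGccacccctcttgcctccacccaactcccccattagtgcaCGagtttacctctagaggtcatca
Hoxa7, chr6:52218524-52218823, minus strand: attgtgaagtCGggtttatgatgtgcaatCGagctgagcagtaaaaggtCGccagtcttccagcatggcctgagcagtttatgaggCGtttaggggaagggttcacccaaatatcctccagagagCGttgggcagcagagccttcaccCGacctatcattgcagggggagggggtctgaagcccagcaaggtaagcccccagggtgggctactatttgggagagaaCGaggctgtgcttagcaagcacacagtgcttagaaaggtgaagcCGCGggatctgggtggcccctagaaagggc
Hoxa9, chr6:52227321-52227620, minus strand: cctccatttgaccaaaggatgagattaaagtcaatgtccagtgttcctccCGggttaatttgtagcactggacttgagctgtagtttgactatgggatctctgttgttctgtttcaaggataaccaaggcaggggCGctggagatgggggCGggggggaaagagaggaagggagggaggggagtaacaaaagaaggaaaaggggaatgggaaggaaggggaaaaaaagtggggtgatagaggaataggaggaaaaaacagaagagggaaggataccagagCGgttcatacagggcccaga
Hoxc4, chr15:103034145-103034444, plus strand: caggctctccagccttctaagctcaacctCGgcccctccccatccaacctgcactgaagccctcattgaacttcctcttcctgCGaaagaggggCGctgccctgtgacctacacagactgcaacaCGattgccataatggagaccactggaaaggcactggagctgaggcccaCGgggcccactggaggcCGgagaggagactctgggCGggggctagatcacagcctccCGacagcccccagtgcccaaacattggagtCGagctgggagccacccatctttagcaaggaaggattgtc
Hoxd1, chr2:74762730-74763029, plus strand: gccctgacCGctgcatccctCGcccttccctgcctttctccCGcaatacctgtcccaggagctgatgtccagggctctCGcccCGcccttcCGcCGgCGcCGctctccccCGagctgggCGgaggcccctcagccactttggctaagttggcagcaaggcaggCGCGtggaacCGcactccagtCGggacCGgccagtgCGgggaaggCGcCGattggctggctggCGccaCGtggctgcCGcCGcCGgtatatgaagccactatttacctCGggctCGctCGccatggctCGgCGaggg
Hoxd9, chr2:74697513-74697812, plus strand: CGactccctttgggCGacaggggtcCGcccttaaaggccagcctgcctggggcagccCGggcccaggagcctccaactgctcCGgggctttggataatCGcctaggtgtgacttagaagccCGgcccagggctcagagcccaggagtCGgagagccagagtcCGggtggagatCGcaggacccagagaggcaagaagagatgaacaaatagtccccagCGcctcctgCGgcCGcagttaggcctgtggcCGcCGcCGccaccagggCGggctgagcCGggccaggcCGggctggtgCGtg
The Hoxa9 promoter holds 4 CG dinucleotides, Hoxa7 and Hoxc4 hold 9 each, Hoxd9 holds 20, and Hoxa5 and Hoxd1 hold 29 each.

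Over the 20 Hox promoters the median was 14.5 CG dinucleotides per 300 bases and the median GC content was 58.7%, against 7.0 and 52.7% over 32851 promoters of the same length. For 9 genes with at least 1 probe set lowest on both pRb+/+ arrays, the median of their 9 promoters was 10 CG dinucleotides, with a range of 4 to 29. For the other 9 genes, with 11 promoters, it was 21, with a range of 4 to 45. The ranges overlapped widely, and the genes of a cluster are neighbours rather than independent points, so these counts are a description. An E2F site spelled TTTCCCGC, TTTGGCGC, TTTCGCGC or TTTGCCGC, searched on both strands, was found in 0 of the 20 Hox promoters and in 2.3% of all promoters. The joint Hox and Pbx site TGATNNAT was found in 3 of 20 (15%), namely 1 promoter each of Hoxb1, Hoxa2 and Hoxd11, against 8.8% of all promoters. The letters TATAAA were found in 2 of 20 (10%), those of Hoxd13 and Hoxa10, against 13.6% of all. These counts concern the letters in a short window and do not show binding.

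Hox scores were lowest in pRb+/+ skin. The median score of the 36 Hox probe sets was -1.01 and -1.03 on the pRb+/+ arrays. It was 0.65 and -0.22 on those of the pRb mutant, 0.65 and 0.74 on those of the p107 mutant, and 0.08 and 0.17 on those of the double mutant. Both pRb+/+ arrays thus lay below the other 6, the arrays of the pRb mutant differed from each other, and those of every other genotype lay close together. Over all probe sets of the array the medians stayed between -0.25 and 0.22.

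**Figure D1:**
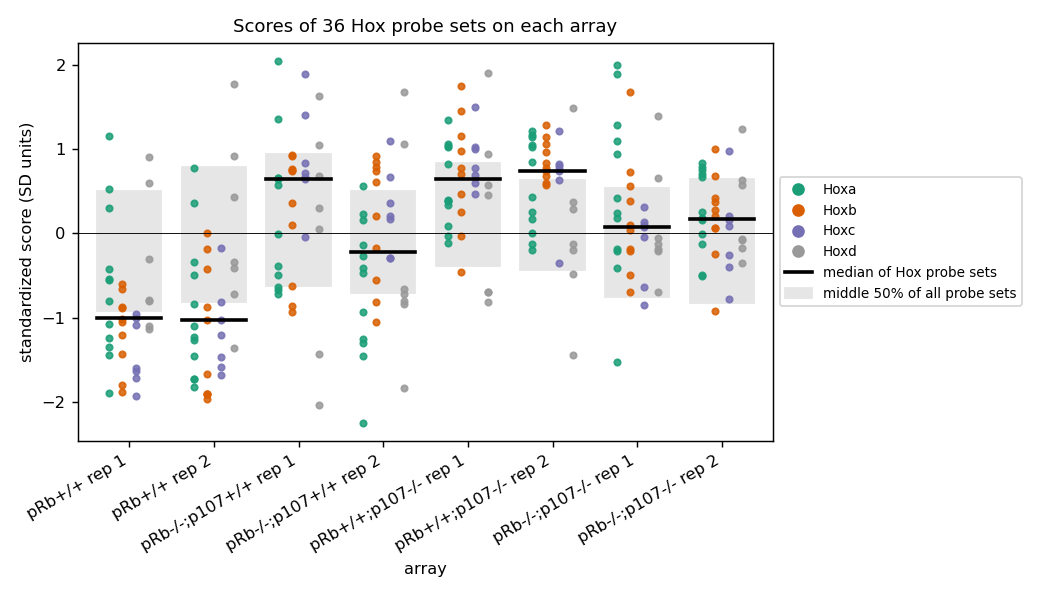
Standardized score (vertical axis, SD units) of each of the 36 Hox probe sets (points, coloured by cluster) on each of the 8 arrays (horizontal axis). Black lines are the median of the Hox probe sets and grey boxes the middle 50% of all probe sets. The Hox medians of -1.01 and -1.03 on the pRb+/+ arrays lie below those of the other 6 arrays.

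In 20 of the 36 probe sets, or 55.6%, both pRb+/+ arrays scored below all 6 others, against 10.3% of all probe sets. The reverse, with both pRb+/+ arrays above all others, was seen in 2 Hox probe sets, those of Hoxa2 and Hoxd9, against 7.28% of all. The pRb+/+ genotype had the lowest mean in 28 of 36, against 32.5% of all probe sets. The p107 mutant had the highest mean in 17 of 36, against 31.1%. After quantile normalization between arrays 14 of 36 kept both pRb+/+ arrays lowest, against 7.59% of all. After subtraction of array medians the count was 17, against 8.23%. With 1 probe set per gene it was 16 of 30. The members and this count were chosen with results of these data known, so the shares are a description.

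The pattern was unequal between clusters. Both pRb+/+ arrays were lowest in 6 of 7 Hoxc and 7 of 10 Hoxb probe sets, in 5 of 12 Hoxa and in 2 of 7 Hoxd. By position it held for 11 of 16 central probe sets, 3 of 7 anterior and 6 of 13 posterior. Among the central probe sets, the median score was -1.44 and -1.06 on the pRb+/+ arrays, 0.65 and 0.19 on those of the pRb mutant, 0.78 and 0.78 on those of the p107 mutant, and 0.12 and 0.13 on those of the double mutant. Among the Hoxd probe sets it was -0.79 and -0.33 on the pRb+/+ arrays and -0.72 on 1 array of the pRb mutant, so there the genotypes overlapped. No test compared clusters or positions with each other.

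**Figure D2:**
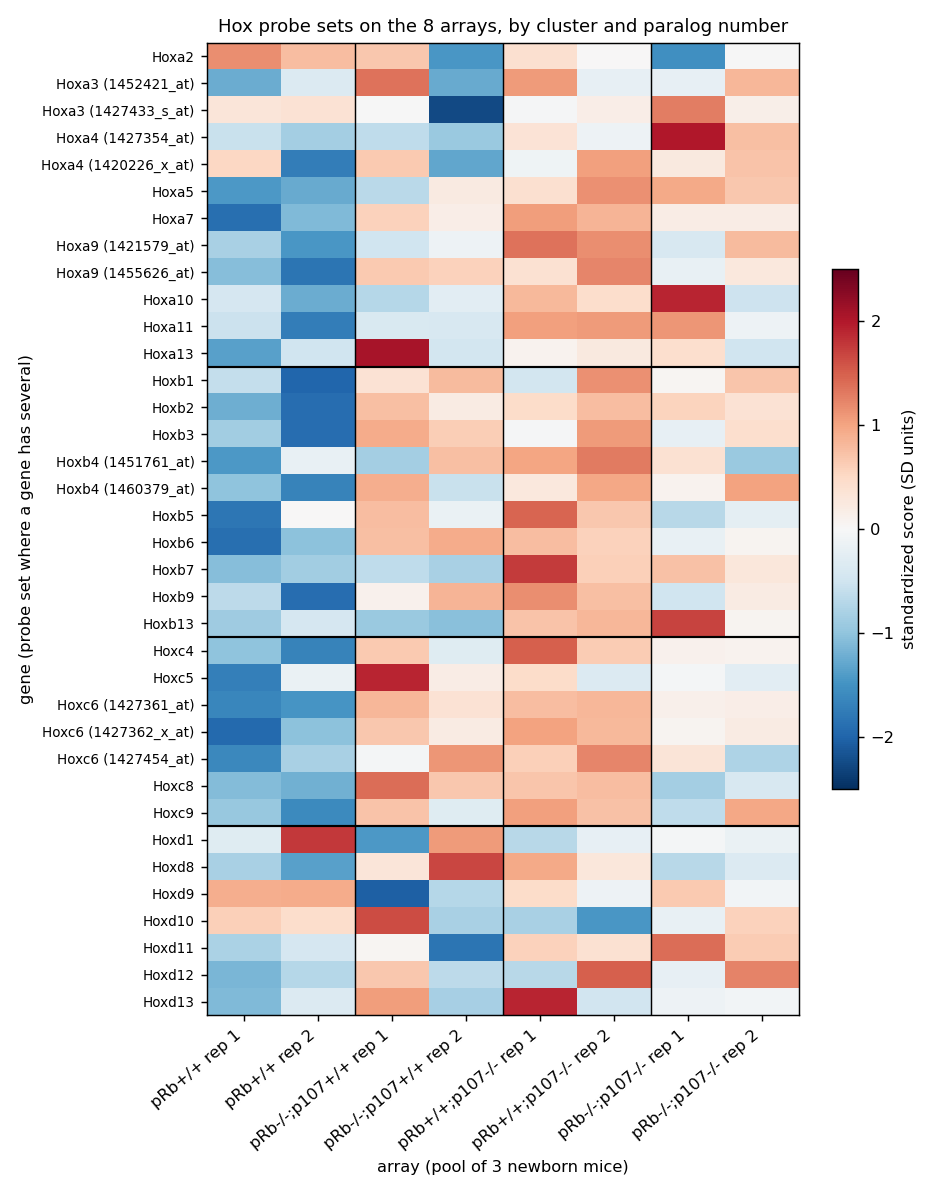
Standardized scores (colour, SD units) of the 36 Hox probe sets (rows, ordered by cluster and paralog number) on the 8 arrays (columns). Blue in the first 2 columns runs through most Hoxb and Hoxc rows, while Hoxa2, Hoxd9, Hoxd10 and 1 probe set of Hoxa3 are positive in both.

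Hoxc6, a central gene of the Hoxc cluster used in the thoracic region, was the only member to pass the test. Its probe set 1427361_at scored -1.64 and -1.47 in pRb+/+ skin, 0.84 and 0.37 in the pRb mutant, 0.77 and 0.83 in the p107 mutant, and 0.14 and 0.16 in the double mutant. The pRb+/+ arrays were lowest, the double mutant came next, and both single mutants were highest and overlapped only each other. Hoxc6 rose with p107 loss in pRb+/+ skin by 2.35 ± 0.18 (SE; limma adjusted p = 0.0482, 2 arrays against 2). It rose with loss of both proteins by 1.7 ± 0.18 (limma adjusted p = 0.039), and the F test over the 4 genotypes gave a limma adjusted p of 0.0491. With pRb loss alone the difference was 2.15 ± 0.18 (limma adjusted p = 0.0895), which did not pass.

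The other probe sets of Hoxc6 gave the same signs without passing. In 1427362_x_at, whose name marks probes that can bind other transcripts, the scores were -1.94 and -1.03 in pRb+/+ skin, 0.67 and 0.21 in the pRb mutant, 1 and 0.8 in the p107 mutant, and 0.07 and 0.21 in the double mutant. In 1427454_at they were -1.6 and -0.81, then -0.04 and 1.1, then 0.61 and 1.22, then 0.31 and -0.78, in the same order of genotypes. The pRb+/+ arrays were lowest in both, by a small gap in the second. Their differences with p107 loss in pRb+/+ skin were 2.39 ± 0.37 and 2.12 ± 0.66 (limma adjusted p = 0.094 and 0.217). The call of 1427361_at was lost with limma's moderated test (adjusted p = 0.182 for p107 loss and 0.15 for loss of both). It was also lost for p107 loss when any 1 of the 8 arrays was left out (limma adjusted p from 0.0717 to 0.275), and for loss of both without any array other than those of the pRb mutant (0.128 to 0.188).

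Of the other central Hoxc genes, Hoxc4 and Hoxc8 had both pRb+/+ arrays lowest and Hoxc5 did not. Hoxc4 scored -1.01 and -1.68 in pRb+/+ skin, 0.65 and -0.3 in the pRb mutant, 1.5 and 0.63 in the p107 mutant, and 0.1 and 0.09 in the double mutant. Hoxc8, which patterns the thoracic region, scored -1.09 and -1.2, then 1.41 and 0.67, then 0.7 and 0.76, then -0.85 and -0.4. In Hoxc8 the double mutant lay close to pRb+/+ skin while both single mutants lay above, with no overlap between single mutants and the other arrays. Hoxc5 scored -1.71 and -0.18 in pRb+/+ skin and 1.89 and 0.18 in the pRb mutant. In the p107 mutant it scored 0.47 and -0.35 and in the double mutant -0.05 and -0.25, so all but the lowest and the highest array of Hoxc5 lay close together. The posterior Hoxc9 scored between -1.58 and -0.95 in pRb+/+ skin and between -0.64 and 1.03 elsewhere.

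Hoxb genes, which act in the hindbrain and the trunk, mostly shared the low pRb+/+ scores. Hoxb2 scored -1.21 and -1.91 in pRb+/+ skin, 0.74 and 0.2 in the pRb mutant, 0.47 and 0.78 in the p107 mutant, and 0.56 and 0.37 in the double mutant. Hoxb3 scored -0.88 and -1.91, then 0.93 and 0.61, then -0.03 and 1.06, then -0.21 and 0.42. In both genes the 3 mutants lay above pRb+/+ skin. They overlapped one another in Hoxb2, while in Hoxb3 the pRb mutant lay above the double mutant and the p107 mutant overlapped both. Hoxb6 scored -1.88 and -1.03 in pRb+/+ skin, 0.76 and 0.92 in the pRb mutant, 0.78 and 0.57 in the p107 mutant, and -0.18 and 0.07 in the double mutant, which here lay between the single mutants and pRb+/+ skin.

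Other Hoxb members were less clean. Hoxb5 scored -1.8 and 0 in pRb+/+ skin, 0.77 and -0.17 in the pRb mutant, 1.46 and 0.68 in the p107 mutant, and -0.69 and -0.24 in the double mutant, so only the p107 mutant lay above both pRb+/+ arrays. Hoxb4 has 2 probe sets. In 1451761_at it scored -1.43 and -0.18, then -0.86 and 0.74, then 0.98 and 1.29, then 0.39 and -0.92, with the p107 mutant highest again. In 1460379_at both pRb+/+ arrays were lowest, at -1.01 and -1.67. Hoxb13, a posterior gene of the tail region, scored -0.89 and -0.42 in pRb+/+ skin and -0.93 and -1.05 in the pRb mutant. It scored 0.71 and 0.84 in the p107 mutant and 1.68 and 0.07 in the double mutant, so all arrays with p107 lost lay above all arrays with p107 kept. The remaining Hoxb1, Hoxb7 and Hoxb9 had both pRb+/+ arrays lowest, with pRb+/+ scores between -1.97 and -0.6. In Hoxb7 the gap was small, at -1.06 and -0.88 in pRb+/+ skin against -0.63 and -0.81 in the pRb mutant. In Hoxb1 it was also small, at -0.6 on 1 pRb+/+ array against -0.46 on 1 array of the p107 mutant.

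In the Hoxa cluster the pattern depended on the gene. Hoxa5, a central gene that is needed for lung and trunk development, scored -1.44 and -1.27 in pRb+/+ skin, -0.68 and 0.23 in the pRb mutant, 0.4 and 1.14 in the p107 mutant, and 0.94 and 0.67 in the double mutant. Hoxa7 scored -1.89 and -1.09, then 0.57 and 0.16, then 1.04 and 0.84, then 0.19 and 0.19. Both genes were lowest in pRb+/+ skin, with Hoxa5 next lowest in the pRb mutant. Hoxa9, a posterior gene also known from blood stem cells, has 2 probe sets. In 1421579_at it scored -0.81 and -1.46 in pRb+/+ skin, -0.5 and -0.13 in the pRb mutant, 1.35 and 1.16 in the p107 mutant, and -0.41 and 0.79 in the double mutant. In 1455626_at it scored -1.07 and -1.83, then 0.66 and 0.57, then 0.38 and 1.22, then -0.19 and 0.26. Both had pRb+/+ skin lowest, and they parted over the pRb mutant.

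Hoxa2, Hoxa3, the central gene Hoxa4 and the posterior Hoxa10 and Hoxa13 did not have both pRb+/+ arrays lowest in any probe set. Hoxa2, which patterns the hindbrain and the second branchial arch, scored 1.16 and 0.77 in pRb+/+ skin, 0.67 and -1.46 in the pRb mutant, 0.39 and 0.01 in the p107 mutant, and -1.53 and -0.01 in the double mutant. It was highest in pRb+/+ skin on both arrays. Hoxa3 in 1427433_s_at scored 0.31 and 0.36, then 0 and -2.25, then -0.03 and 0.17, then 1.29 and 0.16, a spread set largely by 1 array of the pRb mutant. In 1452421_at it scored -1.25 and -0.34 in pRb+/+ skin and 1.35 and -1.26 in the pRb mutant, so the probe sets of Hoxa3 did not follow each other. Hoxa4 in 1427354_at scored -0.56 and -0.84 in pRb+/+ skin, -0.64 and -0.93 in the pRb mutant, 0.34 and -0.12 in the p107 mutant, and 2 and 0.75 in the double mutant. There the arrays with p107 lost lay above those with p107 kept, as in Hoxb13. The other probe set of Hoxa4, 1420226_x_at, ranged from -1.73 to 0.53 within pRb+/+ skin alone.

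The Hoxd cluster, best known for its role in limb and digit patterning, was the most mixed. Hoxd8 scored -0.8 and -1.37 in pRb+/+ skin, 0.3 and 1.68 in the pRb mutant, 0.94 and 0.29 in the p107 mutant, and -0.7 and -0.35 in the double mutant, like Hoxc8 of the same paralog group. Hoxd9 ran the other way, at 0.91 and 0.92 in pRb+/+ skin, -2.04 and -0.72 in the pRb mutant, 0.45 and -0.12 in the p107 mutant, and 0.66 and -0.07 in the double mutant. Here pRb+/+ skin was highest and the pRb mutant lowest. Hoxd10 scored 0.6 and 0.44, then 1.63 and -0.8, then -0.82 and -1.45, then -0.18 and 0.58, so the p107 mutant was lowest. Hoxd11 scored -0.79 and -0.42 in pRb+/+ skin, 0.05 and -1.83 in the pRb mutant, 0.57 and 0.38 in the p107 mutant, and 1.4 and 0.64 in the double mutant, so that the arrays with p107 lost were again above those with p107 kept. The same split was seen in Hoxa5, Hoxa11 and Hoxb7, which also had both pRb+/+ arrays lowest. The share of all probe sets with this split was not counted. Hoxd1 scored -0.3 and 1.78, then -1.43 and 1.07, then -0.69 and -0.2, then -0.05 and -0.17, and the 2 arrays of the pRb mutant enclosed every array of the p107 and double mutants. The limb genes Hoxd12 and Hoxd13 scored between -1.13 and -0.33 in pRb+/+ skin and between -0.84 and 1.9 elsewhere.

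With pRb loss where p107 was kept, Hox scores were mostly higher, but no Hox probe set passed the test. The difference was positive in 28 of 36, against 53.7% of all probe sets, with a median of 1.16 against 0.12 over all. At an adjusted p under 0.05, 0 Hox probe sets were called by limma, with or without moderation, and the call rate over all probe sets was 0.0%. At an unadjusted p under 0.05, 11 Hox probe sets were higher, against 8.24% of all, and 1 was lower, against 5.13%. The most positive were Hoxb6 (2.3 ± 0.33), Hoxc8 (2.18 ± 0.31) and Hoxb3 (2.16 ± 0.59), with limma adjusted p from 0.152 to 0.288. The most negative were Hoxd9 (-2.3 ± 0.57), Hoxa3 in 1427433_s_at (-1.46 ± 0.89) and Hoxa2 (-1.36 ± 0.94), with limma adjusted p from 0.263 to 0.614.

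With p107 loss in pRb+/+ skin the difference was positive in 31 of 36, against 58.8% of all, and the median was 1.89 against 0.35. Hoxc6 was the 1 Hox probe set called by limma, where 0.42% of all probe sets were called in either direction and 0.203% as higher. At an unadjusted p under 0.05, 18 were higher, against 11.7% of all, and 0 were lower, against 7.69%. All 10 Hoxb, all 7 Hoxc and all 16 central probe sets had positive differences. The most positive were Hoxa7 (2.44 ± 0.32), Hoxc4 (2.41 ± 0.51) and Hoxa9 in 1421579_at (2.39 ± 0.5), with limma adjusted p from 0.0802 to 0.137. The most negative were Hoxd10 (-1.65 ± 0.93), Hoxd1 (-1.18 ± 1.16) and Hoxa2 (-0.77 ± 0.94), with limma adjusted p from 0.412 to 0.694.

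With loss of both proteins the difference was positive in 32 of 36, against 52.3% of all, and the median was 1.42 against 0.1. Hoxc6 was again the 1 called by limma, where 2.94% of all probe sets were called in either direction and 1.41% as higher. At an unadjusted p under 0.05, 10 were higher, against 10.8% of all, and 0 were lower, against 11.5%. The most positive were Hoxa5 (2.16 ± 0.43), Hoxa4 in 1427354_at (2.08 ± 0.49) and Hoxb2 (2.03 ± 0.34), with limma adjusted p from 0.0736 to 0.123. The most negative were Hoxa2 (-1.74 ± 0.94), Hoxd1 (-0.85 ± 1.16) and Hoxd9 (-0.62 ± 0.57), with limma adjusted p from 0.374 to 0.717. For Hoxd1 the sign turned, to 0.19, without replicate 2 of pRb+/+, and the difference was -1.89 without replicate 1. These 3 comparisons share the pRb+/+ arrays, so an array effect on either of these arrays enters each of them.

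Within mutant skin the Hox genes stood near the rest of the array. With p107 loss in pRb-/- skin, the double mutant minus the pRb mutant, the difference was positive in 15 of 36, against 47.3% of all probe sets, and negative in 21, with a median of -0.13 against -0.1 over all probe sets. After quantile normalization the split was 19 positive and 17 negative, with a median of 0.01, and after subtraction of array medians it was 18 and 18, with a median of 0.02. Without replicate 1 of the pRb mutant the median was 0.41. No Hox probe set was called by limma at an adjusted p under 0.05, where 1.37% of all were. At an unadjusted p under 0.05, 3 were higher and 1 lower, against 7.77% and 11.4% of all. Hoxa4 in 1427354_at (2.16 ± 0.49), Hoxd11 (1.91 ± 0.73) and Hoxb13 (1.87 ± 0.6) were the most positive. Hoxc8 (-1.66 ± 0.31), Hoxd8 (-1.51 ± 0.59) and Hoxc5 (-1.19 ± 0.87) were the most negative. For these 6 the limma adjusted p ran from 0.108 to 0.531.

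With pRb loss in p107-/- skin, the double mutant minus the p107 mutant, the difference was positive in 12 of 36, against 37.4% of all, and negative in 24, with a median of -0.48 against -0.33 over all. After quantile normalization the split was 17 and 19 and the median -0.37, and after subtraction of array medians it was 17 and 19 with a median of -0.2. No Hox probe set was called by limma, where 0.256% of all were, and at an unadjusted p under 0.05 there were 0 higher and 2 lower, against 4.72% and 7.27% of all. Hoxd10 (1.33 ± 0.93), Hoxa4 in 1427354_at (1.27 ± 0.49) and Hoxa3 in 1427433_s_at (0.65 ± 0.89) were the most positive. Hoxb5 (-1.54 ± 0.79), Hoxb4 in 1451761_at (-1.4 ± 0.86) and Hoxc8 (-1.35 ± 0.31) were the most negative. For these 6 the limma adjusted p ran from 0.25 to 0.85. All 7 Hoxc probe sets had negative differences here and also with p107 loss in pRb-/- skin, but some of these were small. The mean score of Hoxc5 was 0.06 in the p107 mutant and -0.15 in the double mutant. That of Hoxc4 was 0.18 in the pRb mutant and 0.1 in the double mutant, and that of Hoxc9 0.21 and 0.17. Both counts were taken without subtraction of array medians, so such small signs may depend on the scaling.

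**Figure D3:**
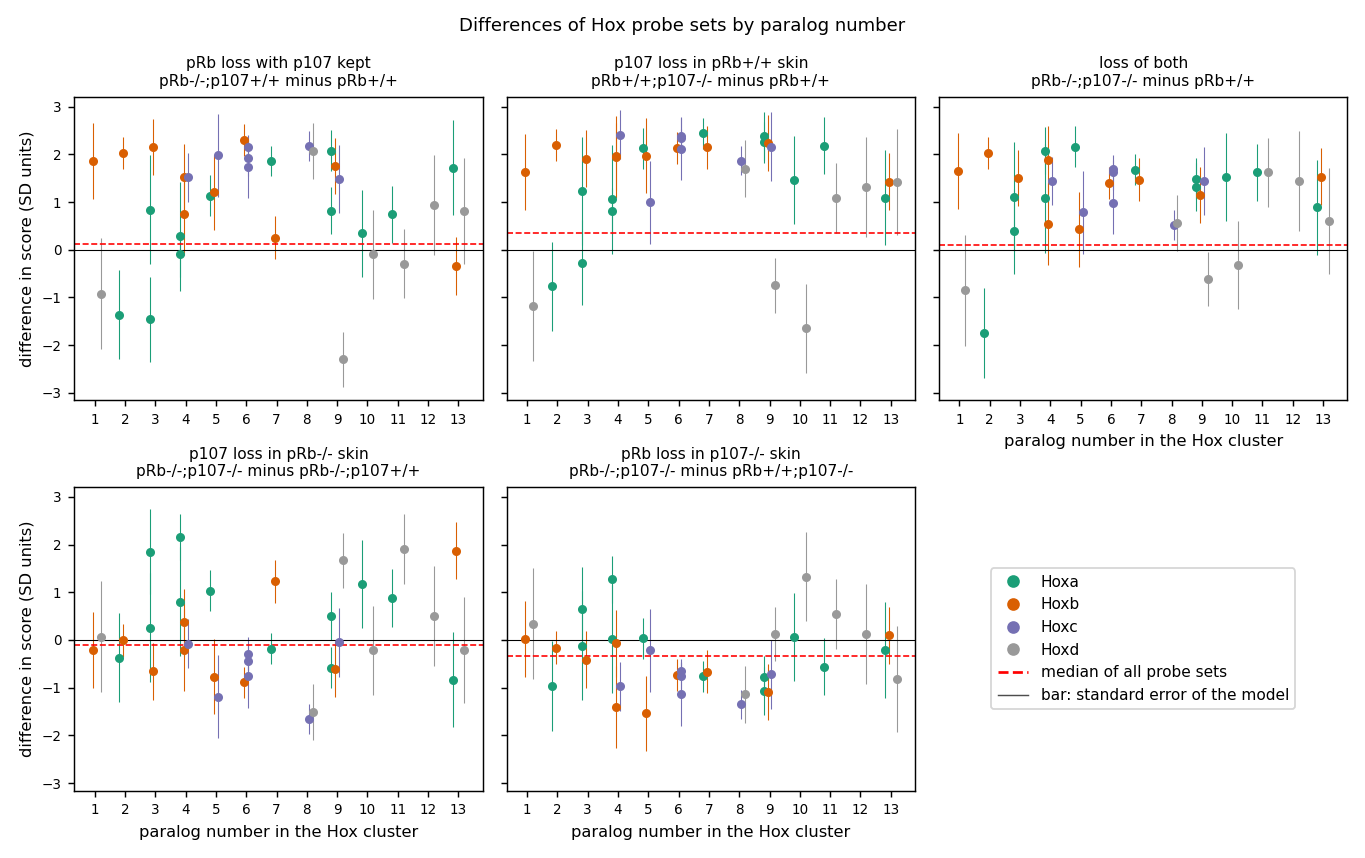
Difference between genotypes (vertical axis, SD units, bars are the standard error of the model) for each Hox probe set against its paralog number (horizontal axis), in 5 comparisons and coloured by cluster. The dashed line is the median of all probe sets. In the upper row, against pRb+/+, most points lie above that line, while Hoxa2, Hoxd1, Hoxd9 and Hoxd10 lie below 0 in all 3 panels.

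The interaction compared the effect of p107 loss in pRb-/- skin with its effect in pRb+/+ skin. It also contains the pRb+/+ arrays, so low scores on them lower it. It is therefore not independent of the comparisons with pRb+/+ skin. It was negative in 28 of 36 Hox probe sets, against 59.9% of all, with a median of -1.86 against -0.44. No probe set of the array passed, so the limma call rate was 0.0%, and at an unadjusted p under 0.05 there were 12 lower and 1 higher Hox probe sets, against 8.76% and 4.34% of all. The most negative were Hoxc8 (-3.54 ± 0.43), Hoxd8 (-3.22 ± 0.83) and Hoxb6 (-3.03 ± 0.46), with limma adjusted p from 0.127 to 0.264. The most positive were Hoxd9 (2.42 ± 0.8), Hoxa3 in 1427433_s_at (2.11 ± 1.26) and Hoxd10 (1.43 ± 1.32), with limma adjusted p from 0.35 to 0.708. All 7 Hoxc probe sets and 15 of 16 central ones were negative. In 19 of 36 the effect of p107 loss was positive in pRb+/+ skin and negative in pRb-/- skin, against 25.2% of all probe sets. The F test over the 4 genotypes called 1 Hox probe set, where 1.28% of all were called, and put 12 at an unadjusted p under 0.05, against 21.4% of all.

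By cluster, the median difference with p107 loss in pRb+/+ skin was 1.34 for Hoxa, 1.96 for Hoxb, 2.16 for Hoxc and 1.08 for Hoxd. With pRb loss where p107 was kept, it was 0.78, 1.64, 1.92 and -0.1 in the same order, and with loss of both it was 1.4, 1.49, 1.44 and 0.56. The Hoxd median with pRb loss became 1.12 without replicate 2 of the pRb mutant, and that with p107 loss was 0.23 or 0.22 without replicate 1 or 2 of the p107 mutant. With loss of both it was 0.23 or 0.28 without replicate 1 or 2 of pRb+/+. The Hoxa median with pRb loss was 0.32 without replicate 2 of pRb+/+. By position, p107 loss in pRb+/+ skin gave medians of 1.23 for anterior, 2.05 for central and 1.43 for posterior probe sets. The anterior median was 0.78 without replicate 1 of pRb+/+ and 0.6 without replicate 1 of the p107 mutant. Over the 30 genes, Spearman's correlation of paralog number with the difference was -0.19 for pRb loss where p107 was kept, -0.04 for p107 loss in pRb+/+ skin and -0.01 for loss of both. Within clusters it differed in sign. For pRb loss it was 0.37 over 9 Hoxa genes, -0.53 over 9 Hoxb, 0 over 5 Hoxc and 0.32 over 7 Hoxd. For p107 loss in pRb+/+ skin it was 0.42, 0.15, -0.3 and 0.32 in the same order, and for loss of both 0.03, -0.37, -0.3 and 0.75. For the interaction it was -0.6 in Hoxa. The points are few and share arrays and clusters, so these are descriptions.

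Members of the same gene served as a check on the probes. Of the 5 genes with several probe sets, all 5 had a single sign with loss of both, 4 with p107 loss in pRb+/+ skin and 3 with pRb loss where p107 was kept. Hoxa3 was the gene whose probe sets parted with p107 loss in pRb+/+ skin, at 1.23 ± 1.14 and -0.27 ± 0.89 (limma adjusted p = 0.598 and 0.899).

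Of the lists of related genes, no member of any of the 7 passed an adjusted p of 0.05 in any comparison. Over all probe sets at most 2.94% were called by limma in a comparison. Positive differences made up 53.7% of all for pRb loss where p107 was kept, 58.8% for p107 loss in pRb+/+ skin and 52.3% for loss of both. The medians over all were 0.12, 0.35 and 0.1 in the same order. Position genes outside the Hox clusters, such as the T-box factors of the limbs, had positive differences in 14 of 18 with p107 loss in pRb+/+ skin (median 1.14) and in 13 with loss of both (median 0.75), but in 9 with pRb loss (median 0.09). Tbx3, a limb and mammary gland factor, was the most positive with p107 loss (2.43 ± 0.49, limma adjusted p = 0.127). Tbx15, a dorsal dermis factor, was the most negative (-1.77 ± 0.73, limma adjusted p = 0.298). Tbx5, which specifies the forelimb, was the most positive with pRb loss (2.26 ± 0.37, limma adjusted p = 0.17), and Twist1 the most negative (-2.08 ± 0.65, limma adjusted p = 0.326).

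The TALE cofactors, of which 8 of 9 were measured, were split in the comparisons with pRb+/+ skin. They were positive in 4 with pRb loss, in 5 with p107 loss in pRb+/+ skin and in 3 with loss of both, with medians of -0.34, 0.31 and -0.38. With pRb loss in p107-/- skin 0 of these 8 were positive (median -0.8), against 37.4% of all probe sets. This count was taken without subtraction of array medians, after which the share of all probe sets was 48.2%. Pbx3 (-0.16 ± 0.73) and Pbx2 (-0.25 ± 0.96) lay nearest to 0, so their signs may depend on the scaling. Meis3 was the most positive with p107 loss (2.19 ± 0.41, limma adjusted p = 0.118) and Meis2 the most negative with loss of both (-2.42 ± 0.51, limma adjusted p = 0.103). Polycomb genes, which silence Hox clusters, were positive in 11, 13 and 12 of 25 for pRb loss, p107 loss in pRb+/+ skin and loss of both, with medians of -0.31, 0.02 and -0.08. Trithorax genes were positive in 6, 5 and 9 of 11, with medians of 0.57, -0.38 and 0.59. Genes of retinoic acid synthesis and response, a signal that switches Hox genes on in the embryo, were positive in 8, 8 and 6 of 16, with medians of 0.05, 0.02 and -0.43. Cdx factors and other upstream regulators were positive in 5, 5 and 6 of 10, with medians of 0.08, 0.21 and 0.63. Other homeobox genes of skin and hair were positive in 7, 8 and 12 of 20, with medians of -0.56, -0.39 and 0.36.

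**Figure D4:**
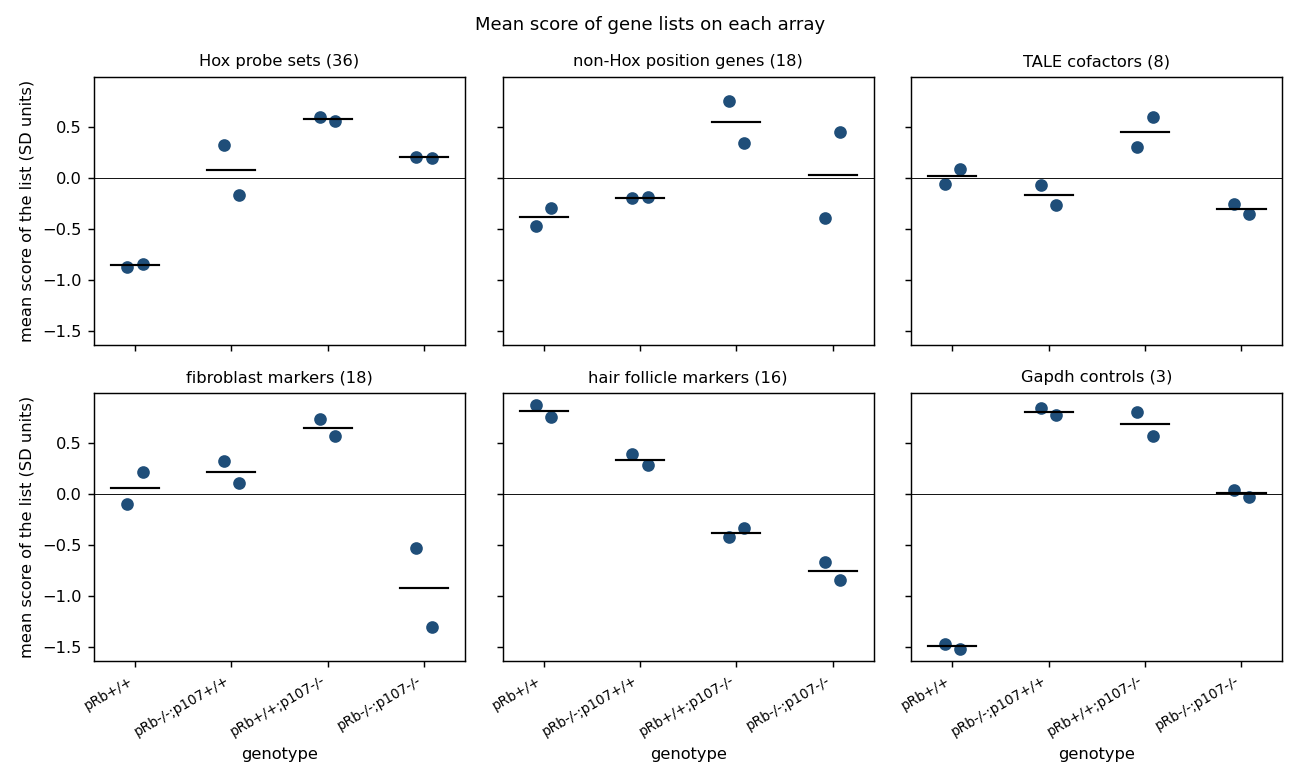
Mean standardized score (vertical axis, SD units) of the Hox probe sets and of 5 other sets on each array (points), with the mean of the 2 arrays of each genotype (lines). The Hox and Gapdh panels are lowest on both pRb+/+ arrays, whereas the fibroblast panel is lowest on those of the double mutant. The Hox and fibroblast panels are both highest on the p107 mutant arrays.

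Other measures moved with some of these values. The mean score of the 3 Gapdh control probe sets was -1.47 and -1.52 on the pRb+/+ arrays and between -0.03 and 0.84 on the other 6, so it had the same lowest genotype as the Hox genes, and its part in the Hox differences was not tested. The mean of the beta-actin controls was 0.3 and -0.86 on the pRb+/+ arrays. Fibroblast markers, of which 18 of 19 were measured, averaged -0.1 and 0.21 in pRb+/+ skin, 0.32 and 0.11 in the pRb mutant, 0.73 and 0.57 in the p107 mutant, and -0.53 and -1.31 in the double mutant. They were positive in 8 of 18 with pRb loss where p107 was kept, in 14 with p107 loss in pRb+/+ skin and in 3 with loss of both. With loss of both, Col5a1 (-1.43 ± 0.13), Fbln2 (-1.55 ± 0.12) and Dpt (-2.25 ± 0.29) fell, with limma adjusted p of 0.033, 0.0239 and 0.0496. Fibroblast markers were thus lowest in the double mutant, where Hox scores lay above those of pRb+/+ skin. Hair follicle markers averaged 0.87 and 0.75 in pRb+/+ skin, 0.39 and 0.28 in the pRb mutant, -0.42 and -0.34 in the p107 mutant, and -0.67 and -0.85 in the double mutant. With loss of both, 11 of their 16 measured members fell at a limma adjusted p under 0.05 and 0 rose, where 1.54% of all probe sets were lower and 1.41% higher. The list was not uniform, as 3 members had positive differences without passing. These were Gata3 (1.87 ± 0.54), Shh (1.5 ± 0.29) and Foxn1 (0.84 ± 1.08), with limma adjusted p of 0.163, 0.0904 and 0.7. Suprabasal keratinocyte markers, of which 12 of 14 were measured, averaged -0.65 and -0.74 in pRb+/+ skin, -0.38 and -0.42 in the pRb mutant, 0.24 and 0 in the p107 mutant, and 1.02 and 0.92 in the double mutant. Like the Hox scores, they had both pRb+/+ arrays below all others, but the double mutant was highest. With loss of both, 11 of these 12 were positive (median 1.96), and the barrier gene Krtdap (2.4 ± 0.2) and the desmosomal cadherin Dsc1 (2.62 ± 0.17) rose, with limma adjusted p of 0.0267 and 0.0188. Mast cell markers, of which 10 of 12 were measured, averaged -0.72 and -0.56 in pRb+/+ skin, -0.6 and -0.38 in the pRb mutant, 0.49 and 0.54 in the p107 mutant, and 0.6 and 0.61 in the double mutant, so both genotypes with p107 lost were higher. With loss of both, 9 of these 10 were positive (median 1.68), with 3 that rose and 1 that fell at a limma adjusted p under 0.05. None of the remaining cell type lists had both pRb+/+ arrays below all others in its mean score. The part of any of these cell types in the Hox differences was not tested.

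The body site of the skin sample is not given in the labels, and its part in the Hox scores was not tested. The targeted genes were read as a check of the labels. Rb1 scored 1.21 and 1.07 on the pRb+/+ arrays, -0.22 and 0.36 in the pRb mutant, 0.02 and 0.4 in the p107 mutant, and -1.56 and -1.28 in the double mutant. It fell with loss of both (-2.56 ± 0.27, limma adjusted p = 0.0391), but the pRb mutant overlapped the p107 mutant, whose label keeps pRb. The mean of the 2 Rbl1 probe sets was 0.33 and 0.62 on the pRb+/+ arrays and 1.35 and 0.56 in the pRb mutant. It was -1.52 and -1.17 in the p107 mutant, and -0.22 and 0.06 in the double mutant. Their differences with p107 loss in pRb+/+ skin were -1.51 ± 0.25 and -2.13 ± 0.55 (limma adjusted p = 0.103 and 0.175). With loss of both they were -0.14 ± 0.25 and -0.97 ± 0.55 (limma adjusted p = 0.789 and 0.391). The former probe set showed no fall in the double mutant, at -0.31 and 0.31 against 0.08 and 0.21 on the pRb+/+ arrays. No source used here says whether the Rb1 and Rbl1 probe sets lie within the deleted sequence. They therefore do not settle the genotypes, and each genotype above is that of the label.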

How the data were processed

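RNA from whole newborn skin was measured on 8 arrays, 2 for each of 4 genotypes. Per the submitters' processing notes the authors used RMA, without a version given. The deposited values are standardized scores, with mean 0 and SD 1 for each probe set. No label records this step, so whether log or linear values were standardized is not known, and signal over background cannot be read. Groups came from sample titles.

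Genotype means were fitted as a linear model in limma 3.58.1 (R 4.3.3) to 22626 probe sets, after 64 control probe sets were left out, with 4 residual degrees of freedom. Unmoderated two-sided tests were adjusted by Benjamini-Hochberg over all of them, with a threshold of 0.05, and were checked on simulated data. Alternatives were the moderated test, quantile normalization, subtraction of array medians, a replicate block, leaving out each array and 1 probe set per gene. Hox probe sets were named with all 8 scores where they passed in any contrast or were among the 3 most positive or negative. For other genes 1 probe set stood for each, chosen by its name, and the extremes of a list were named. The members and lists were chosen with earlier results of these data known. Same-numbered arrays did not deviate together (correlations from -0.131 to 0.105), so the numbers were not taken to pair the arrays. Gene symbols came from the platform annotation, and all 30 Hox genes matched the RefSeq gene table.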

Additional observations from a re-analysis of the deposited data

How the results depend on the processing

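The number of called Hox probe sets went from 1 to 0 with the moderated test and with the replicate block, each for p107 loss in pRb+/+ skin, loss of both and the F test, and the block changed no other call. Leaving out 1 array gave 0 to 0 calls for p107 loss in pRb+/+ skin, 0 to 1 for loss of both and 0 to 0 for the F test. Quantile normalization and subtraction of array medians left 1 call in each of these. The cause was not tested for any of these changes. The median Hox difference with p107 loss in pRb+/+ skin was 1.58 with array medians subtracted. Over single arrays left out, the Hox median ran from 0.88 to 1.5 for pRb loss where p107 was kept, from 1.67 to 1.94 for p107 loss in pRb+/+ skin, from -0.32 to 0.41 for p107 loss in pRb-/- skin and from 1.14 to 1.42 for loss of both. For pRb loss where p107 was kept, quantile normalization gave medians of 1.4 for Hoxb, 0.55 for anterior, 1.4 for central and 0.54 for posterior probe sets, subtraction of array medians gave 1.45 for Hoxb, and 1 probe set per gene gave 1.35 for anterior ones. For p107 loss in pRb+/+ skin, quantile normalization gave 1.92 for Hoxc, 0.91 for anterior and 1.17 for posterior probe sets. Subtraction of array medians gave 1.65 for Hoxb, 1.84 for Hoxc, 0.92 for anterior, 1.73 for central and 1.12 for posterior ones. With single arrays left out, the ranges for pRb loss where p107 was kept were 0.32 to 1.09 for Hoxa, 1.29 to 1.86 for Hoxb, -0.12 to 1.12 for Hoxd, 0.33 to 1.64 for anterior, 1.43 to 1.95 for central and 0.46 to 1.12 for posterior probe sets. For p107 loss in pRb+/+ skin they were 1.34 to 1.95 for Hoxa, 1.75 to 2.17 for Hoxb, 0.22 to 1.26 for Hoxd and 0.6 to 1.23 for anterior ones. For loss of both they were 1.11 to 1.75 for Hoxa, 1.3 to 1.58 for Hoxb, 1.17 to 1.44 for Hoxc, 0.66 to 1.63 for anterior and 0.79 to 1.44 for posterior ones. The count of Hox probe sets with the pRb+/+ arrays below all others, whose alternatives were chosen after seeing the data, was 20 to 25 with single arrays left out, while the share of all probe sets rose to 20.7% and 22.8% when only 1 pRb+/+ array was left. Hoxd1 with loss of both turned from -0.85 to 0.19 without replicate 2 of pRb+/+ and was -1.89 without replicate 1. The 3 calls of Hoxc6 were the only Hox calls, and they were lost in 28 pairs of a call and an alternative. The other Hox probe sets had no call to lose. This count does not cover the calls of genes outside the Hox clusters. Scores of 2 arrays per genotype limit the precision, and detection over background cannot be judged from them.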

Other observations

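Hoxa11os, the antisense transcript of Hoxa11, has its own probe set, which scored -1.66 and 0.17 in pRb+/+ skin, 0.16 and -0.28 in the pRb mutant, 1.02 and 0.09 in the p107 mutant, and -0.96 and 1.47 in the double mutant. Hoxa11 itself scored -0.54 and -1.73 in pRb+/+ skin, then -0.38 and -0.41, then 1.03 and 1.06, then 1.09 and -0.12 in the same order. The F test over the 4 genotypes gave Hoxa11os a limma adjusted p of 0.813.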
